A study of Mus musculus with 7 samples.

Results

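Baseline expression was described in mouse primary hepatocytes transfected with the control miRNA Cel-239b, using all 3 arrays that carry this control in their title, B, C and D, of 7 arrays in the series. Cel-239b is a miRNA of the worm Caenorhabditis elegans, used as a non-mammalian control for a miRNA mimic. The cells came from male C57BL/6J mice with no stated genetic modification. They were isolated by collagenase digestion and a Percoll gradient, which separates hepatocytes from the other cells of the liver. They were plated in medium with serum, insulin and dexamethasone, transfected with 1 µg of Cel-239b in the lipid reagent Metafectene-Pro, and lysed 24 h later. The other 4 arrays, of cells given miR-709, were not compared here. The labels do not say whether the 3 control arrays stand for separate mice, isolations or dishes, so the SD below measures only the spread between these arrays, which may be technical. Fresh liver, freshly isolated cells and untransfected cells were not analysed here, so every value is a level in cultured, transfected cells and no change with isolation, culture or transfection was measured.

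Hepatocytes make most of the proteins of blood plasma, the lipoproteins, urea and bile acids, and they store and release glucose and detoxify drugs and hormones. They do this under a network of liver-enriched transcription factors. Hepatocytes placed on plastic are known to flatten, to build actin cables and to lose some of these functions, a process called dedifferentiation, and the digestion of the tissue is itself known to be a stress. Liver also holds bile duct cells (cholangiocytes), sinusoidal endothelial cells, Kupffer cells (the resident macrophages) and stellate cells (the vitamin A-storing pericytes).

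Each value is the log2 signal of a probe set on an Affymetrix Mouse Gene 1.0 ST array, so a difference of 1 is a doubling of signal. The brightest probe set with exactly 1 gene symbol stood for each of 19938 genes. Signal depends on how well the probes bind as well as on the transcript, so a percentile below is the place of a gene's signal among the signals of all genes and gives no order of transcript amounts. The median gene had a mean log2 signal of 5.38, with quartiles at 3.88 and 7.60 and extremes of 2.09 and 13.63. As a measure of low signal, the 1015 olfactory receptor genes, which belong to the nose, had a median of 3.02, and their 95th percentile, 4.34, is called the olfactory limit. Of all genes, 66% had a mean above it, and 10% (1995 genes) formed the top 10%, at 8.99 or more. The olfactory limit is lenient: 15 of 37 genes known for other organs also lay above it, such as *Tnnt3* of skeletal muscle at 5.66 and *Sst* of endocrine cells at 5.62, and none of the 37 exceeded 5.66. Signals between 4.34 and 5.66 are therefore given without a statement that the gene was expressed. The highest olfactory receptor gene read 7.25, so a signal above 5.66 does not by itself show expression either.

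**Figure D1:**
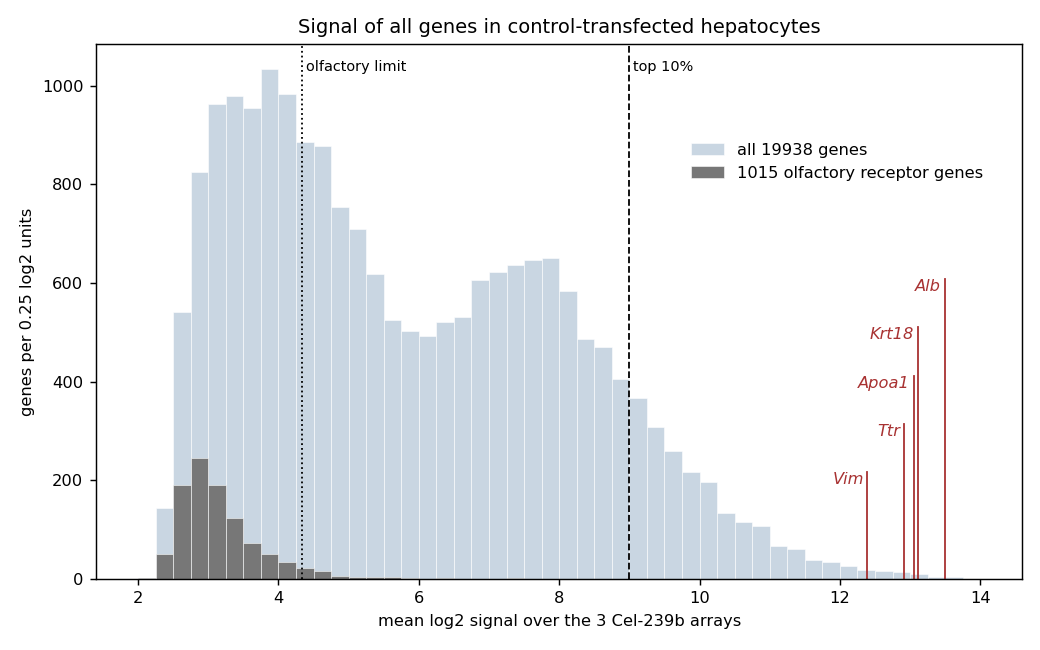
Histogram of the mean log2 signal over the 3 Cel-239b arrays (x axis) in bins of 0.25 units (y axis, genes per bin), for all 19938 genes and for the 1015 olfactory receptor genes. The dotted line marks the olfactory limit of 4.34, the dashed line the start of the top 10% at 8.99, and red lines mark 5 marker genes, which lie between 12.39 and 13.49, in the far right tail.

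The arrays were close to each other. Pearson's r over all 28853 probe sets was 0.9965 to 0.9969 between pairs of arrays, which is a correlation across probe sets and not across replicates. The median SD of a gene over the 3 arrays was 0.10, the 90th percentile of the SD was 0.21, and 14 genes above the olfactory limit had a range of more than 1. Of 36 gene lists with 920 different members, 824 members were measured by a probe set of their own, 37 had only probe sets shared with other symbols, and 59 were not matched to a probe set here.

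The label was checked first. *Alb*, which encodes albumin, the main protein of plasma, read 13.52, 13.48 and 13.46 on arrays B, C and D, a mean of 13.49 ± 0.03 (SD, n = 3, as for every ± below). *Apoa1*, the main apolipoprotein of high-density lipoprotein, read 12.95, 13.11 and 13.08. *Ttr*, the carrier of thyroid hormone and retinol-binding protein, read 12.95, 12.85 and 12.92. These hepatocyte products stood 4th, 16th and 20th in signal among 19938 genes. *Krt18*, a keratin of simple epithelia including hepatocytes, read 13.08, 13.13 and 13.12, which placed it 14th. *Vim*, which encodes the intermediate filament vimentin of mesenchymal cells, read 12.45, 12.37 and 12.36, and stood 52nd. The hepatocyte markers thus had the high signal that the label calls for, and the mesenchymal filament gene was also in the brightest 1% of genes.

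Secreted plasma proteins formed a bright list. Of 46 measured genes, 45 lay above the olfactory limit (97.8%, beside 66% of all genes) and 31 in the top 10% (67.4%, beside 10% of all genes), with a median signal at the 96.2 percentile and a median SD of 0.08. The highest after *Alb* were the iron carrier *Trf*, at 13.42, 13.34 and 13.33 on the 3 arrays, the calcification inhibitor *Ahsg* (13.14 ± 0.02), *Ttr* and the haem carrier *Hpx* (12.89 ± 0.07). The lowest were the complement gene *C6* (5.20 ± 0.09), the corticosteroid carrier *Serpina6* (6.25 ± 0.06) and *Mbl1*, a mannose-binding lectin, at 3.97 ± 0.20, the single member at or below the limit. A probe set shared by the alpha-1-antitrypsin genes *Serpina1a* to *Serpina1e* read 13.01 ± 0.05, and the copies cannot be told apart there.

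Apolipoprotein and lipoprotein genes were all above the limit (18 of 18, beside 66% of all genes), and 11 were in the top 10% (61.1%). After *Apoa1* came *Apoe* (12.77 ± 0.10), *Apoa4* (12.73 ± 0.05), *Apoc3* (12.71 ± 0.11) and *Apoa2* (12.63 ± 0.10). *Apob*, the backbone protein of very-low-density lipoprotein, read 11.68 ± 0.21, and *Mttp*, which loads it with lipid, 9.76 ± 0.09. The lowest signals belonged to *Pltp* (7.19 ± 0.13), the phospholipid transfer protein, *Angptl8* (7.32 ± 0.12) and *Apoa5* (7.35 ± 0.01).

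Genes of the urea cycle and of amino acid breakdown spanned a wide range. All 32 measured genes lay above the limit (beside 66% of all genes) and 12 were in the top 10% (37.5%). *Glud1*, glutamate dehydrogenase, read 12.84 ± 0.04, *Got1* 10.95 ± 0.06 and *Cth* 10.43 ± 0.04. *Cps1*, which starts the urea cycle, read 9.98, 10.23 and 9.79, and *Arg1*, which ends it, 9.14 ± 0.12, with a probe set that *Ass1* shares with a pseudogene at 11.17 ± 0.09. *Otc*, the ornithine step between them, read 5.74, 5.61 and 5.69, close to the range of the genes of other organs. *Hal*, which breaks down histidine, was lowest at 5.46 on each array, followed by *Agxt* (5.55 ± 0.07).

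Glucose genes showed a similar split. All 17 lay above the limit (beside 66% of all genes) and 7 were in the top 10% (41.2%). The highest was *Pklr*, the liver pyruvate kinase (11.93 ± 0.06). The insulin-like growth factor binding protein and growth factor genes *Igfbp1* (11.15 ± 0.19) and *Igf1* (10.71 ± 0.11) came next. The glucose carrier *Slc2a2* (10.52 ± 0.01) and the fructose kinase *Khk* (10.44 ± 0.20) followed. Both rate-setting genes of glucose release were among the 3 lowest. *Pck1* read 5.80, 5.61 and 5.87, and *G6pc* read 5.27, 5.61 and 5.62, with the coactivator *Ppargc1a* at 5.45 ± 0.11. *Fbp1*, an enzyme of the same pathway, read 8.92 ± 0.03, and *Pcx*, at its entry, 8.74 ± 0.05.

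Drug-metabolising enzymes covered nearly the whole distribution. Of 52 cytochrome P450 and conjugation genes, 47 lay above the limit (90.4%, beside 66% of all genes) and 16 in the top 10% (30.8%). *Cyp2c70*, which makes muricholic bile acids in mice, read 12.27, 12.11 and 12.16, and *Cyp2b10*, the classical target of the nuclear receptor CAR, read 11.95, 12.06 and 11.97. *Gstm1* (11.05 ± 0.17), *Ugt2b34* (10.82 ± 0.09) and *Cyp2f2* (10.18 ± 0.17) followed. *Cyp7a1*, the rate-limiting enzyme of bile acid synthesis, was the lowest of the list at 2.90, 2.90 and 2.53, the 3.8 percentile of all genes. *Cyp2c55* (3.38 ± 0.23) and *Cyp2c38* (3.97 ± 0.27) were next. Several P450 families hold near-identical copies, so a signal there may include relatives.

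Bile acid and ion transport genes ran from the 99.1 percentile to below the olfactory limit. Of 23 measured, 21 lay above the limit (91.3%, beside 66% of all genes) and 5 in the top 10% (21.7%). The 5 were the prostaglandin carrier *Slco2a1* (11.42 ± 0.11), the basolateral exporter *Abcc3* (10.92 ± 0.05), the canalicular exporters *Abcc2* (9.86 ± 0.05) and *Abcg2* (9.17 ± 0.12), and the bile acid ligase *Slc27a5* (9.09 ± 0.17). The bile salt export pump *Abcb11* read 7.50 ± 0.17, and the canalicular sterol exporters *Abcg5* and *Abcg8* read 6.07 ± 0.03 and 5.40 ± 0.11. Of the uptake carriers, *Slc10a1*, the sodium-dependent bile acid carrier, read 6.58, 6.21 and 6.42, *Slco1b2* read 4.42, 4.41 and 4.50, and *Slco1a4* (4.16 ± 0.19) and the organic anion carrier *Slc22a30* (3.62 ± 0.17) lay below the olfactory limit.

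Of 27 hepatocyte transcription factor genes, 26 lay above the limit (96.3%, beside 66% of all genes). In the top 10% were 2 (7.41%), below the 10% of all genes. *Hnf4a*, a central regulator of hepatocyte identity, read 9.45, 9.43 and 9.31, and *Atf5* read 9.29 ± 0.03. *Zfp36l1* (8.88 ± 0.13), *Creb3l3* (8.46 ± 0.13) and the shared receptor partner *Rxra* (8.15 ± 0.11) followed. At the other end, *Cebpd* read 4.72 ± 0.02, *Nr1i3*, which encodes CAR, 4.47, 4.54 and 4.65, and *Nr0b2*, the bile acid-induced repressor SHP, 4.08 ± 0.07. Thus CAR, the receptor, lay within the range of the genes of other organs while its textbook target *Cyp2b10* was at the 99.56 percentile.

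In the liver lobule, hepatocytes near the portal inflow and those near the central vein express different genes. Of 17 periportal genes, all lay above the limit (beside 66% of all genes) and 9 in the top 10% (52.9%), with a median at the 91.1 percentile. Examples are the lipid droplet protein *Hsd17b13* (11.61 ± 0.07), *Igf1* and E-cadherin, *Cdh1* (10.20 ± 0.06). Of 20 pericentral genes, 18 lay above the limit and 4 in the top 10%, with a median at the 63.9 percentile. *Cyp2e1* read 9.99 ± 0.15 and *Glul*, the glutamine synthetase of the innermost cells, 9.27, 9.19 and 9.59, while a second *Glul* probe set read 7.94. Genes linked to Wnt signalling lay on both sides of 5.66. *Axin2* (4.72 ± 0.04), *Sp5* (4.59 ± 0.10) and *Lgr5* (3.94 ± 0.01) were under it. *Znrf3* (6.33 ± 0.02), *Rnf43* (5.95 ± 0.13) and *Tbx3* (5.67 ± 0.24) were above it. The lists hold different genes and probes, so the medians were not tested against each other.

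The sex of the donors matched the label. The Y-linked genes *Eif2s3y* (8.42 ± 0.21), *Kdm5d* (6.76 ± 0.12) and *Uty* (6.74 ± 0.17) lay above the limit on all arrays, and *Xist*, the RNA of the inactive X chromosome in females, read 2.90, 2.92 and 2.98. Of 20 male-biased liver genes, 16 lay above the limit (beside 66% of all genes) and 4 in the top 10% (beside 10% of all genes). Among the 4 were *Gstp1* (12.61 ± 0.16) and *Mup3* (11.24 ± 0.22), a urinary protein gene with close copies. The growth hormone-dependent genes *Hsd3b5* (3.61 ± 0.13) and *Elovl3* (4.14 ± 0.15) lay below the olfactory limit. Of 15 female-biased liver genes, 8 lay above the limit (53.3%, beside 66% of all genes) and 0 in the top 10%. *Sult3a1* (2.44 ± 0.05) and *Cyp2b13* (2.82 ± 0.15) were the lowest.

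**Figure D2:**
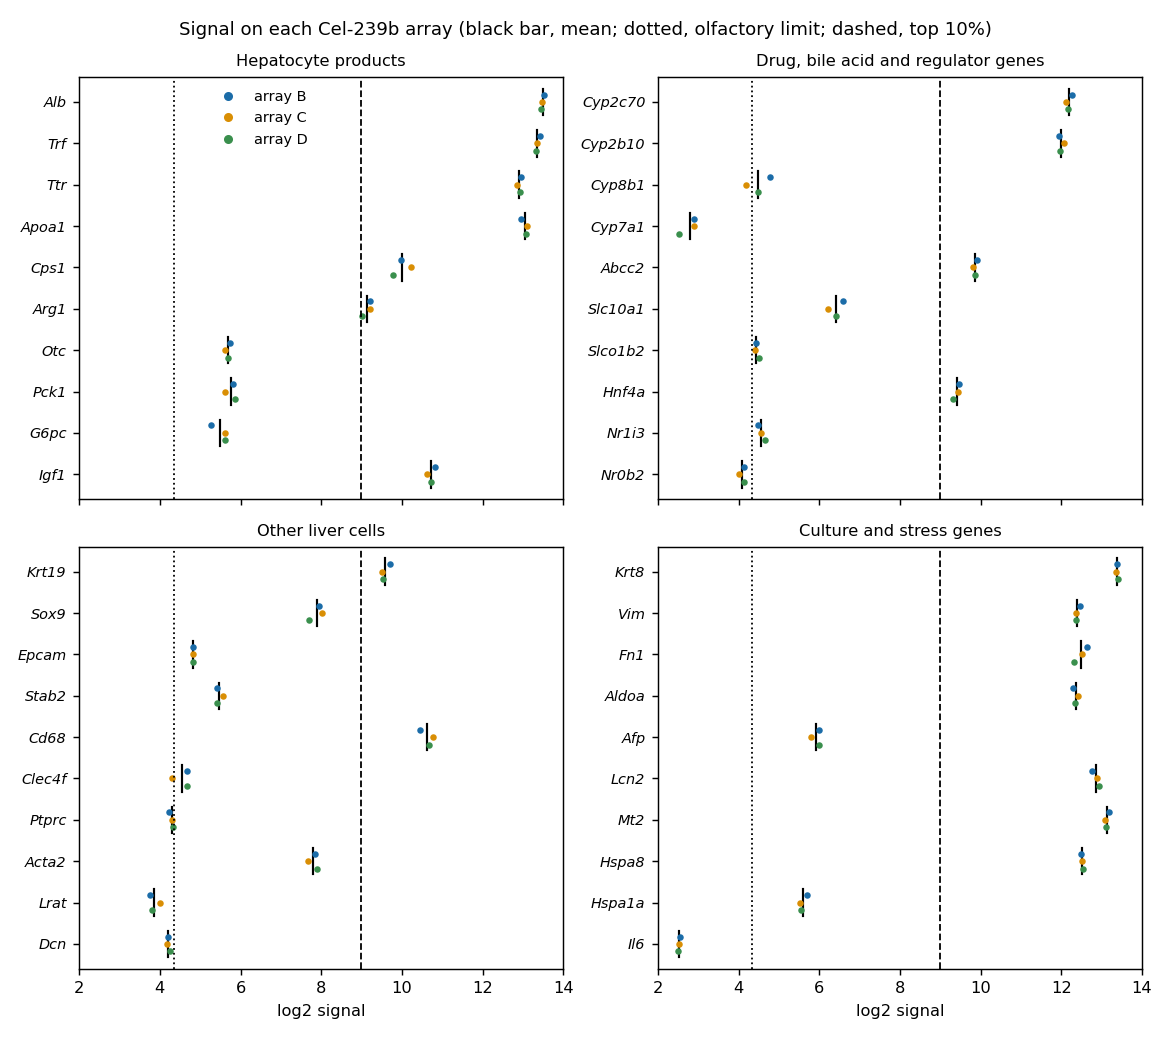
Log2 signal (x axis) of 40 named genes on each of the 3 Cel-239b arrays, 1 point per array, with a black bar at the mean, a dotted line at the olfactory limit of 4.34 and a dashed line at the start of the top 10%. Albumin at 13.49 and *Cyp7a1* at 2.78 lie at opposite ends, and the arrays of a gene lie close together.

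Markers of the other cells of the liver were mostly in the lower part of the distribution. In bulk RNA, fewer cells of a type and less RNA per cell cannot be told apart. Of 29 Kupffer cell and leukocyte markers, 8 lay above the olfactory limit (27.6%, beside 66% of all genes). This was fewer in proportion than among the genes of other organs (40.5%). The mean of the list was 4.07, 4.06 and 4.09 on the 3 arrays. The Kupffer genes *Clec4f* (4.68, 4.29 and 4.66), *Vsig4* (3.24 ± 0.03) and *Cd5l* (3.02 ± 0.08), the macrophage gene *Adgre1* (3.35 ± 0.07) and the pan-leukocyte gene *Ptprc* (4.29 ± 0.05) were all under 5.66. *Cd68*, a lysosomal glycoprotein used as a macrophage marker, was the single exception, at 10.44, 10.76 and 10.66, the 97.8 percentile. The other 28 measured members of the list read at most 5.22.

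For sinusoidal endothelial cells, 14 of 24 markers lay above the olfactory limit (58.3%, beside 66% of all genes) and 0 in the top 10%. Of the 24, 3 exceeded 5.66: the lymphatic growth factor receptor *Flt4* (6.43 ± 0.07), *Egfl7* (6.35 ± 0.08) and *Oit3* (5.88 ± 0.10). The scavenger receptor *Stab2* read 5.42, 5.57 and 5.41, *Kdr* 4.21 ± 0.10 and *Clec4g* 3.93 ± 0.08. The mean of the list was 4.66, 4.66 and 4.74. For blood cells and platelets, 4 of 7 markers lay above the limit (57.1%, beside 66% of all genes). The highest were the haem enzyme *Alas2* (6.36 ± 0.12) and the platelet integrin *Itga2b* (5.69 ± 0.17). The probe set shared by the alpha-globin genes read 5.70 ± 0.12 and that of the beta-globin genes 3.95 ± 0.14. For the mesothelium, 3 of 6 lay above the limit and none above 5.66.

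Stellate cell and fibroblast markers gave 14 of 25 genes above the limit (56.0%, beside 66% of all genes) and 0 in the top 10%, with list means of 4.96 to 5.02. Of these, 8 exceeded 5.66. They included the collagen crosslinking enzyme *Lox* (8.86, 8.96 and 8.97), *Ecm1* (8.06 ± 0.05), smooth muscle actin *Acta2* (7.85, 7.67 and 7.89) and the collagen genes *Col1a1* (5.91 ± 0.21), *Col1a2* (5.75 ± 0.04) and *Col3a1* (5.70 ± 0.03). The stellate markers *Reln* (6.25 ± 0.20) and *Colec11* (5.69 ± 0.09) were among the 8, and *Ngfr* (5.58 ± 0.06) and *Hand2* (5.06 ± 0.12) lay between 4.34 and 5.66. *Lrat* (3.85 ± 0.13), which makes the stored retinyl esters, *Des* (4.06 ± 0.01), *Pdgfrb* (4.08 ± 0.06) and *Dcn* (4.20 ± 0.03) were below the olfactory limit. Whether *Lox*, *Acta2* and *Reln* came from hepatocytes or from other cells was not tested.

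Cholangiocyte markers were spread widely. Of 17, 13 lay above the limit (76.5%, beside 66% of all genes). In the top 10% were 2 (11.8%), *Anxa4* (9.73 ± 0.09) and the duct keratin *Krt19* (9.71, 9.50 and 9.53). *Cd24a* (8.43 ± 0.34), *Slc4a2* (8.26 ± 0.03), the progenitor factor *Sox9* (7.95, 8.01 and 7.70), *Bicc1* (7.43 ± 0.11) and *Pkhd1* (5.94 ± 0.30) also exceeded 5.66. *Epcam* (4.81 ± 0.00), the bicarbonate regulator *Cftr* (2.84 ± 0.02), the secretin receptor *Sctr* (4.60 ± 0.06) and *Muc1* (3.77 ± 0.09) did not. *Krt7*, the keratin paired with *Krt19* in ducts, read 5.53 ± 0.19.

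**Figure D3:**
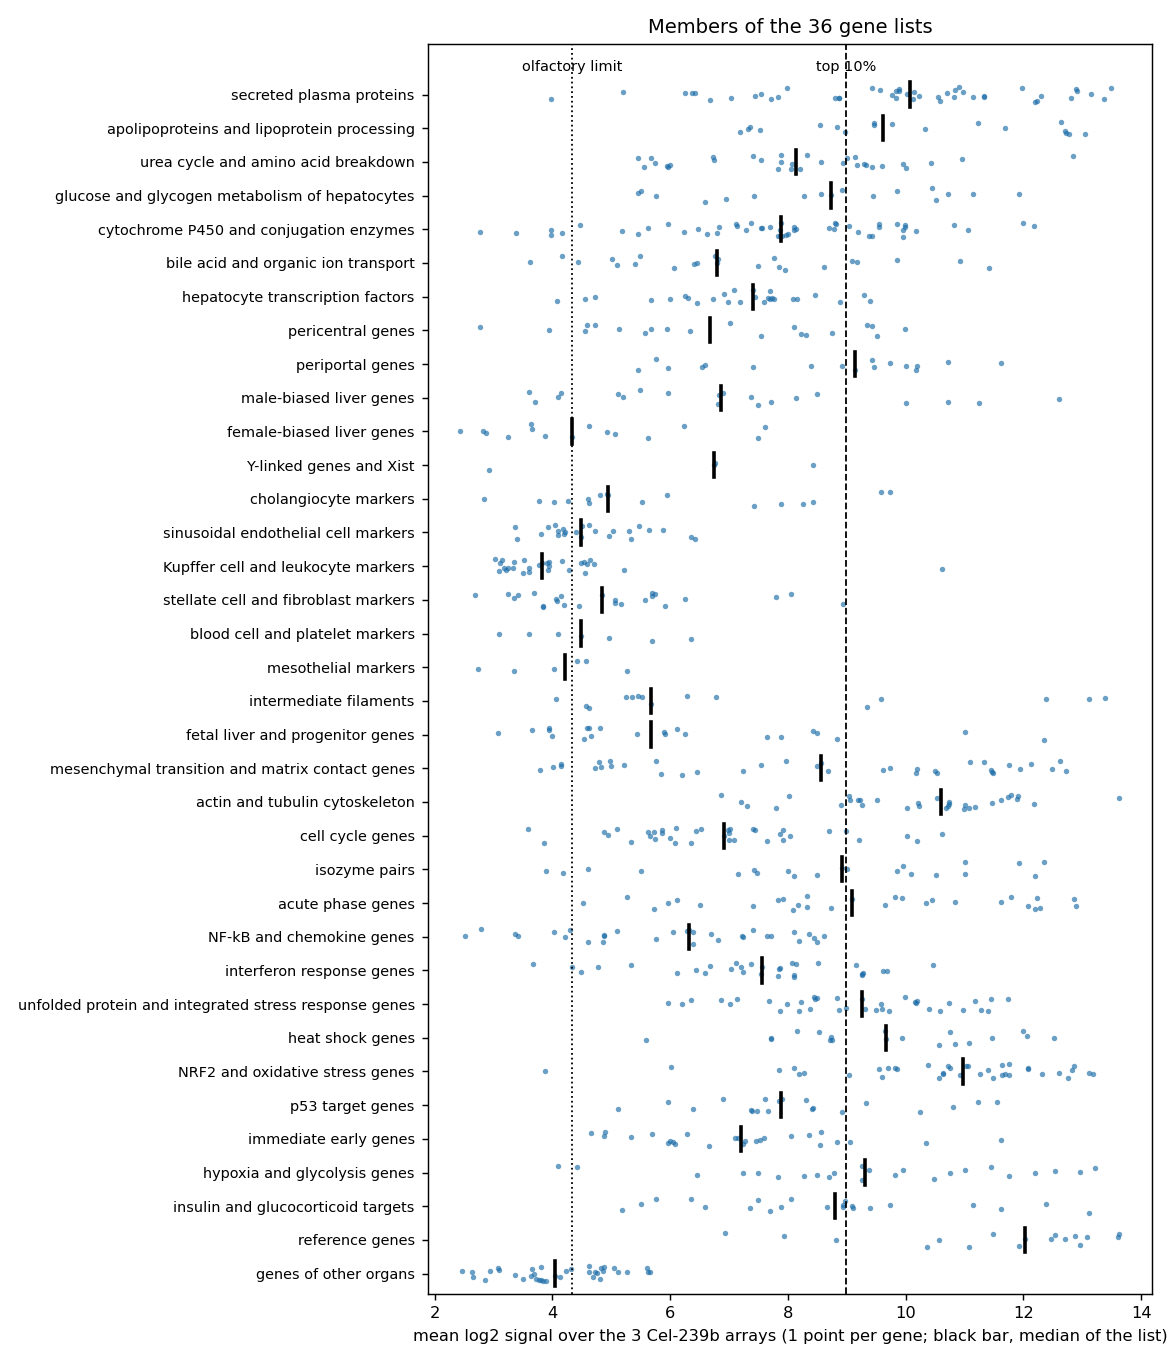
Mean log2 signal over the 3 Cel-239b arrays (x axis) of the measured members of 36 gene lists (y axis), 1 point per gene, with a black bar at the median of each list, a dotted line at the olfactory limit of 4.34 and a dashed line at the start of the top 10%. The medians run from 3.82 for Kupffer cell and leukocyte markers to 12.02 for reference genes, and *Cd68* at 10.62 stands alone in the former.

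Genes of dedifferentiation were read next. Among 15 intermediate filament genes, *Krt8* (13.37, 13.36 and 13.40), *Krt18* and *Vim* were in the brightest 52 of all genes, and *Krt19* and the lamin gene *Lmna* (9.34 ± 0.01) were also in the top 10%. The remaining keratins were low, from 5.67 ± 0.10 for *Krt80* to 4.58 ± 0.16 for *Krt23*, and the muscle filament gene *Des* lay under the limit.

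The actin and tubulin cytoskeleton had one of the highest medians of all lists, at the 97.7 percentile. Above the limit were 32 of 32 genes (beside 66% of all genes) and in the top 10% 26 (81.2%). *Actb* (13.63 ± 0.03) was the brightest gene of all. *Tmsb10*, an actin monomer binder, read 12.17 ± 0.06, the myosin light chain *Myl6* 11.91 ± 0.04, the tropomyosin *Tpm3* 11.89 ± 0.08 and cofilin, *Cfl1*, 11.79 ± 0.04. A second probe set of *Tpm3* read 7.20. The smooth muscle genes *Tagln* (6.87 ± 0.11), *Myl9* (7.20 ± 0.11) and *Cnn1* (7.31 ± 0.11) were the lowest.

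Of 37 genes of mesenchymal transition and matrix contact, 33 lay above the limit (89.2%, beside 66% of all genes) and 17 in the top 10% (45.9%). The calcium-binding *S100a10* (12.72 ± 0.03) and *Anxa5* (12.62 ± 0.02), fibronectin, *Fn1* (12.63, 12.50 and 12.32), the YAP target *Ccn2* (12.12 ± 0.12) and *S100a11* (11.94 ± 0.11) led the list. *Mmp13* (4.14 ± 0.06), *Zeb2* (4.01 ± 0.04) and *Anxa1* (3.79 ± 0.19) were its lowest members. The transition factors were split. *Zeb1* (7.23 ± 0.05) and *Snai2* (6.45 ± 0.13) exceeded 5.66, whereas *Snai1* (5.21 ± 0.05), *Twist1* (4.72 ± 0.01), *Twist2* (4.82 ± 0.21) and *Zeb2* did not. Both cadherins, epithelial *Cdh1* (10.20 ± 0.06) and neural *Cdh2* (9.61 ± 0.02), were in the top 10%. Freshly isolated hepatocytes were not analysed here, so whether *Cdh2*, *Fn1* or other members of the list rose in culture was not tested.

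Fetal liver and progenitor genes lay near the middle of the distribution, with a median at the 53.3 percentile. Of 22, 17 lay above the limit (77.3%, beside 66% of all genes). In the top 10% were 2 (9.09%), the glycolytic isozymes *Aldoa* (12.29, 12.41 and 12.34) and *Pkm* (11.03, 10.94 and 11.04). The progenitor factors *Sox4* (8.83 ± 0.12) and *Sox9*, the hexokinase *Hk2* (8.49 ± 0.16), the surface protein *Cd24a* and the hyaluronan receptor *Cd44* (7.64 ± 0.06) came next. *Afp*, alpha-fetoprotein, the fetal counterpart of albumin, read 5.98, 5.80 and 5.99. The imprinted genes *Dlk1* (5.90 ± 0.24), *Igf2* (4.65 ± 0.11) and *Meg3* (3.94 ± 0.10), and the growth regulator *Lin28b* (3.07 ± 0.16) read 5.90 or less, near or within the range of the genes of other organs.

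Adult and non-hepatic isozymes of the same reaction were measured side by side. For pyruvate kinase, the liver form *Pklr* read 11.91, 11.88 and 11.99, and *Pkm* is given above. For hexokinase, *Hk1* read 12.16, 12.24 and 12.19, although its second probe set read 7.54, *Hk2* read 8.49 ± 0.16 and the leukocyte form *Hk3* 4.18 ± 0.09. For glucose carriers, hepatic *Slc2a2* read 10.52 ± 0.01 and the widespread *Slc2a1* 11.01 ± 0.06, while *Slc2a3*, the carrier known from neurons, read 3.89 ± 0.04, below the olfactory limit. For glycogen phosphorylase, the liver form *Pygl* read 9.86 ± 0.04, the brain form *Pygb* 8.10 ± 0.17 and the muscle form *Pygm* 4.60 ± 0.05. Probe sets of different genes give no ratio between isozymes, but *Pklr* and *Pkm* were both in the top 10%, as were *Slc2a2* and *Slc2a1*.

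Cell cycle genes were spread around the middle. Of 37, 35 lay above the limit (94.6%, beside 66% of all genes). In the top 10% were 4 (10.8%), near the 10% of all genes. The 4 were the G1 kinases *Cdk4* (10.64, 10.46 and 10.72) and *Cdk6* (10.19 ± 0.09), *Myc* (10.02 ± 0.10) and the replication clamp *Pcna* (9.21 ± 0.23). The helicase gene *Mcm6* read 8.98 ± 0.06. The cell cycle inhibitor *Cdkn2c* (3.86 ± 0.04), cyclin E2, *Ccne2* (4.87 ± 0.00), and the mitotic checkpoint gene *Bub1* (3.58 ± 0.21) were lowest. *Mki67*, a marker of dividing cells, read 5.69, 5.61 and 5.64.

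Oxidative stress genes had the highest place of the stress lists. Of 38 NRF2 and oxidative stress genes, 37 lay above the limit (97.4%, beside 66% of all genes). In the top 10% were 32 (84.2%), and the median lay at the 98.5 percentile. The ferritin chains *Fth1* (13.18 ± 0.06) and *Ftl1* (12.83 ± 0.02), the metal-binding metallothioneins *Mt2* (13.17, 13.08 and 13.10) and *Mt1* (12.75 ± 0.09) and thioredoxin, *Txn1* (12.86 ± 0.04), led it. *Abcc4* (7.85 ± 0.09), *Nqo1* (6.08, 5.83 and 6.14) and *Aldh3a1* (3.88 ± 0.10) were the lowest. *Nqo1* is a textbook NRF2 target, at the 56.9 percentile here, and *Gclc* (12.32 ± 0.07) and *Hmox1* (11.28, 11.50 and 11.40), targets of the same factor, were at or above the 99.1 percentile. Several members, such as *Cat* and *Gstm1*, are also known to be high in normal liver.

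Genes of protein folding stress were also bright. All 37 unfolded protein and integrated stress response genes lay above the limit (beside 66% of all genes) and 19 were in the top 10% (51.4%). The endoplasmic reticulum chaperones *Hspa5* (11.80, 11.68 and 11.72), *Canx* (11.44 ± 0.04) and *Pdia3* (11.39 ± 0.04), *Herpud1* (11.28 ± 0.10) and asparagine synthetase, *Asns* (11.17 ± 0.06), were the highest. The death-linked factor *Ddit3* (6.46, 6.15 and 6.46), the hormone *Fgf21* (6.20 ± 0.14) and *Nupr1* (5.97 ± 0.10) were the lowest. Of 19 heat shock genes, all lay above the limit and 11 in the top 10% (57.9%, beside 10% of all genes). Among the 11 were constitutive *Hspa8* (12.51 ± 0.03), *Hsp90aa1* (12.06 ± 0.02) and mitochondrial *Hspd1* (11.47 ± 0.12). The heat-inducible *Hspa1a* read 5.69, 5.53 and 5.54, and a probe set it shares with *Hspa1b* read 7.49 ± 0.09.

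Hypoxia and glycolysis genes gave 23 of 24 above the limit (95.8%, beside 66% of all genes) and 14 in the top 10% (58.3%). *Ldha*, lactate dehydrogenase A, read 13.20, 13.22 and 13.23 and stood 8th of all genes, *Pgk1* (12.96 ± 0.03) stood 18th, and *Tpi1* read 12.54 ± 0.04. The tightly hypoxia-induced gene *Car9* (4.09 ± 0.10) was below the olfactory limit and *Pfkfb4* (4.42 ± 0.02) close to it. Of 20 p53 target genes, all lay above the limit and 5 in the top 10%, among them *Ccng1* (11.55 ± 0.08) and *Mdm2* (9.32 ± 0.03), while the death gene *Bbc3* read 5.12 ± 0.16. A probe set that holds *Cdkn1a* with 1 other symbol read 10.48 ± 0.08.

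Immediate early genes, which tissue digestion is known to switch on, were not bright as a list 24 h after transfection. All 26 lay above the limit, but 3 were in the top 10% (11.5%), near the 10% of all genes: the phosphatase *Dusp1* (11.57, 11.67 and 11.59), *Klf6* (10.35 ± 0.05) and *Srf* (9.06 ± 0.03). *Fos* read 5.91, 6.23 and 6.00, *Egr1* 6.08 ± 0.10 and *Fosb* 4.89 ± 0.16.

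Acute phase genes, which the liver raises in inflammation, were high. All 29 lay above the limit (beside 66% of all genes) and 15 were in the top 10% (51.7%), with a median SD of 0.07. *Hpx*, the iron-siderophore binder *Lcn2* (12.77, 12.88 and 12.94), haptoglobin, *Hp* (12.28, 12.29 and 12.27), *Fgb* (12.23 ± 0.09) and ceruloplasmin, *Cp* (12.19 ± 0.05), were the highest, and *Orm3* (5.73 ± 0.06), *Il1rn* (5.26 ± 0.04) and *A2m* (4.52 ± 0.13) the lowest. *Saa2*, a serum amyloid gene with close copies, read 11.68, 11.42 and 11.77. Some members, such as the fibrinogen genes, are plasma proteins in the absence of inflammation as well.

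Inflammatory signalling genes were not as bright. Of 31 NF-kB and chemokine genes, 24 lay above the limit (77.4%, beside 66% of all genes) and 0 in the top 10%. The subunits and inhibitors *Rela* (8.62 ± 0.17), *Nfkbib* (8.50 ± 0.10) and *Nfkb2* (8.45 ± 0.12) led the list, and the cytokines *Il6* (2.54, 2.53 and 2.50), *Il1a* (2.79 ± 0.08) and the chemokine *Cxcl5* (3.36 ± 0.02) were its lowest. *Il6*, an inducer of acute phase genes, stood at the 0.9 percentile.

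Genes of the interferon response had the widest spread between arrays of all lists. Of 31 measured, 29 lay above the limit (93.5%, beside 66% of all genes) and 7 in the top 10% (22.6%), with a median at the 74.6 percentile. Their median SD was 0.20, against 0.10 for all genes and at most 0.15 in any other list. Interferons are signals of viral infection, and many of the genes that respond to them encode antiviral proteins. The tether of viral particles *Bst2* (10.21, 10.53 and 10.66), the deISGylase *Usp18* (9.69 ± 0.16), *Oasl1* (9.62 ± 0.23), *Stat2* (9.27 ± 0.10) and the antiviral enzyme *Rsad2* (8.86, 9.21 and 9.71) had the highest signals. *Oas2* (4.49 ± 0.16), *Mx1* (4.33 ± 0.23) and the interferon gene *Ifnb1* (3.68 ± 0.11) had the lowest.

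The spread had a common direction. The mean of the 31 genes was 7.27 on array B, 7.43 on array C and 7.63 on array D, a range of 0.36, the widest among the 36 lists, while the mean of all genes was 5.81, 5.81 and 5.83. Array D was above array B for 28 of 31 genes and above array C for 25 of 31, beside 51.9% and 51.7% of all genes. Array D was the highest of the 3 for 23 of the 31, beside 36.4% of all genes. After further quantile normalization the list means were 7.26, 7.44 and 7.63, and after median centring 7.27, 7.42 and 7.64. The deposited values were already quantile normalized, so neither step could move these means far. The widest range belonged to *Oasl2*, at 6.92, 7.29 and 7.94, followed by *Psmb8*, at 6.62, 7.21 and 7.53, and *Rsad2*. A probe set shared by *Gbp2* and *Gbp2b*, which was not counted among the 31, read 6.94, 7.43 and 7.78. These are 3 arrays of 1 group with no further label to divide them, so no test was made and the cause was not tested. The mean of the Kupffer cell and leukocyte list was 4.07, 4.06 and 4.09 on the same arrays, but 21 of its 29 genes were at or below the olfactory limit, and the part of such cells in the spread was not tested.

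**Figure D4:**
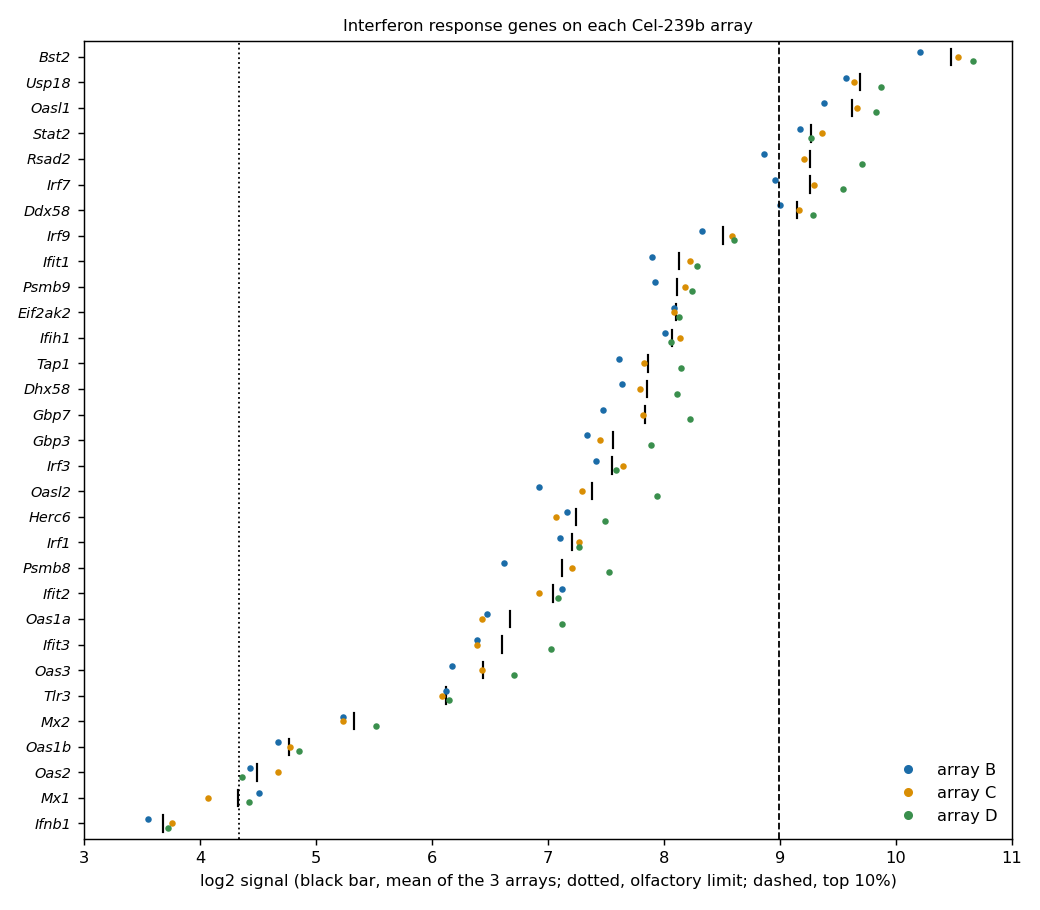
Log2 signal (x axis) of the 31 measured interferon response genes on each Cel-239b array, 1 point per array, with a black bar at the mean, a dotted line at the olfactory limit and a dashed line at the start of the top 10%. Points of array D lie to the right of those of array B for 28 of the 31 genes, by 1.02 for *Oasl2*.

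The upstream sequences of 3 genes of this list with wide ranges are shown because the interferon-stimulated response element is the DNA motif by which such genes are known. They were chosen after their values were seen, among genes with a match. *Oasl2* and *Psmb8*, which had wider ranges (1.02 and 0.91), had a promoter sequence but no match. Each is the 150 bases before the annotated start in GRCm38.p6 (RefSeq), 5′ to 3′ on the strand of the gene, with matches to GAAANNGAAA on either strand in capitals: *Rsad2* at chr12:26456453-26456602, minus strand, *Gbp7* at chr3:142530186-142530335, plus strand, and *Oas1a* at chr5:120907526-120907675, minus strand.
Rsad2: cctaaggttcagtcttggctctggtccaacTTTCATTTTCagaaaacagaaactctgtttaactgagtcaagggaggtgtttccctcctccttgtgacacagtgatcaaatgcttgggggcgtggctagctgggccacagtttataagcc
Gbp7: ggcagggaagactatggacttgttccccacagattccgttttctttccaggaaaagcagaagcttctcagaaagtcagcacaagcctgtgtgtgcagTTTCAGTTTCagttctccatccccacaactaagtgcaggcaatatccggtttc
Oas1a: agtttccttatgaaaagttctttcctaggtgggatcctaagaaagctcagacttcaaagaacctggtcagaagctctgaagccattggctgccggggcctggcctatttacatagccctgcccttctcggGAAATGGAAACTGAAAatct
In *Rsad2* the match runs from 120 to 111 bases before the start and in *Gbp7* from 53 to 44, both on the opposite strand. In *Oas1a*, 2 overlapping matches run from 20 to 5 bases before it. GAAANNGAAA, searched on both strands from 250 bases before to 50 after the start, was in 12 of 25 interferon gene promoters with a sequence (48.0%), in 1 of 36 of plasma protein genes (2.78%), in 0 of 14 of apolipoprotein genes and in 3.99% of all 27025 genes. The motif is part of how interferon genes are known, so this share describes the list and is neither a site nor a cause. *Gbp7* read 7.47, 7.82 and 8.22 and *Oas1a* 6.47, 6.43 and 7.12 on the 3 arrays.

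The medium held insulin and dexamethasone, and genes known to answer to them were read as a list. All 22 measured lay above the limit (beside 66% of all genes) and 8 were in the top 10% (36.4%). *Mt2*, the fatty acid desaturase *Scd1* (12.38 ± 0.11), *Dusp1*, *Igfbp1* (11.24, 11.28 and 10.93) and the insulin receptor gene *Insr* (9.74 ± 0.07) led it. The glucocorticoid target *Tat* read 8.77, 8.99 and 9.06, and *Fkbp5* 9.08 ± 0.09. *Pck1*, *G6pc* and *Pnpla3* (5.19 ± 0.13) were lowest. Dexamethasone induces and insulin represses some of these genes, and cells without either were not analysed here.

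The 20 brightest genes mixed these programmes. Beside the 4 hepatocyte and epithelial markers, they held the plasma proteins *Trf* and *Ahsg*, the keratin *Krt8*, the translation genes *Eef1a1* (13.60 ± 0.08), *Rpl10* (13.14 ± 0.01), *Rplp0* (13.07 ± 0.10) and *Rps2* (13.03 ± 0.06), the small nuclear RNA gene *Rn7sk* (13.12 ± 0.04), *Ldha*, *Pgk1*, *Fth1*, *Mt2*, the secreted chaperone *Clu* (12.91 ± 0.03) and *Actb*. The third in signal was *Sprr1a* (13.51, 13.50 and 13.48), a small proline-rich protein of the cornified envelope of skin. The fifth was *Baiap2l1* (13.36, 13.57 and 13.35), a membrane-bending adaptor of actin, for which the dimmest of 3 probe sets read 9.07. Reference genes gave 17 of 17 above the limit and 14 in the top 10% (82.4%, beside 10% of all genes), but *Polr2a* read 8.43, 7.88 and 7.48, an SD of 0.48.

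Few of the genes with the widest ranges among those above the limit belonged to the lists. *Usp17ld*, of a deubiquitinase family with close copies, read 10.53, 8.82 and 10.90, a range of 2.08. *AY036118* read 11.31, 10.15 and 11.38, and the ribosomal RNA gene *n-R5s136* read 10.34, 11.12 and 9.78. *Ctla2b* (4.96, 4.09 and 5.60), *Fut11* (6.71, 5.36 and 6.81), *Mir199a-1* (6.19, 5.27 and 6.66), *Eid3*, *Lncpint*, *Snora23*, *Tbrg3*, *Rbm12b2* and *Mfsd4b3-ps* had ranges of 1.01 to 1.51. The glutathione peroxidase *Gpx2* (4.07, 4.85 and 5.31) and *Oasl2* completed the genes with a range over 1, and *Olfr767* followed with 0.99. Array C was the lowest for *Usp17ld*, *Ctla2b*, *Fut11*, *Mir199a-1*, *AY036118* and *Mfsd4b3-ps*. *Oasl2* was the one list member among these 15, and *Olfr767* belongs to the olfactory receptors.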

How the data were processed

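Total RNA (100 ng per sample) was labelled and hybridised to Affymetrix Mouse Gene 1.0 ST arrays, 1 array per sample. The authors deposited log2 signals per probe set, made with RMA in Partek (background correction, quantile normalization and combination of probes), in versions not given in the sources used here, and the deposited values carry 2 decimals. Raw scans were not analysed here. RMA makes the distributions of arrays alike and compresses low signals, so small differences at low signal carry little information.

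Of 28853 probe sets, 21789 had 1 gene symbol, 1621 several and 5443 none. Those with 1 symbol were kept. Where a gene had more than 1 of them (999 genes), the one with the highest mean on the 3 Cel-239b arrays stood for it. Percentiles, SDs and counts were computed in Python 3.11.15 with pandas 2.3.3 and numpy 2.4.6, and figures were drawn with matplotlib 3.10.9. The computation was tested on simulated data. No test between groups was made, since 1 group of 3 arrays is described.

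All 7 columns of the deposited table were matched to samples. Those of miR-709 served only for choosing probe sets in 1 alternative. The olfactory limit is the 95th percentile of olfactory receptor genes and the top 10% holds the genes at or above the 90th percentile of all genes. Alternatives were another limit or share, other ways to choose or average probe sets, further scaling of the arrays, the lowest array in place of the mean, and leaving out each array.

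The gene lists and the members were chosen with earlier results of these data known. Named were the 5 markers, the 20 brightest genes, of each list the 5 highest and 3 lowest members, any member of lists of up to 26 genes, and the 15 genes with the widest range. *Clec4f*, *Vsig4*, *Adgre1*, *Ptprc*, *Snai1*, *Snai2*, *Twist1*, *Twist2*, *Zeb1*, *Cdh2*, *Mki67*, *Gclc*, *Hmox1*, *Cat*, *Saa2*, *Psmb8*, *Gbp7* and *Oas1a*, and genes of shared probe sets, were named after their values were seen.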

Additional observations from a re-analysis of the deposited data

How the results depend on the processing

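The 3 arrays of 1 group give levels and a spread but no test, signal has no calibration to transcript amounts, and the background correction of the arrays could not be varied. Counts of list members above the olfactory limit stayed within 1.5 times in 359 of 370 comparisons with an alternative, and counts in the top 10% in 375 of 407. Those that moved did so under another limit or share only, by construction. Many of the others could hardly move. Lists with all members above the limit could not gain any. Further scaling of the arrays, or leaving out 1 array, left both limits almost unchanged. No robustness of the counts is therefore read from the 359 and the 375. With the 99th percentile of olfactory receptor genes as the limit (5.19), 2 Kupffer cell and leukocyte, 7 sinusoidal endothelial, 9 stellate cell and fibroblast, 8 cholangiocyte, 2 blood cell and 1 mesothelial marker lay above it, as did 4 female-biased liver genes and 4 genes of other organs. With the 95th percentile of vomeronasal receptor genes (3.45), 20 Kupffer cell and leukocyte markers, 22 sinusoidal endothelial markers and 29 genes of other organs lay above it. Presence or absence of other liver cells can therefore not be read from these counts.

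The top 25% (4986 genes) then took the place of the top 10%, so each count stands beside 25% of all genes. It held 31 of 52 cytochrome P450 and conjugation genes and 31 of 37 unfolded protein and integrated stress response genes. It held 21 of 32 genes of the urea cycle and amino acid breakdown, 18 of 19 heat shock and 15 of 31 interferon response genes. Insulin and glucocorticoid targets gave 15 of 22, p53 targets 13 of 20, cell cycle genes 11 of 37 and glucose genes 11 of 17. Hepatocyte transcription factors gave 11 of 27, transport genes 9 of 23, pericentral genes 8 of 20 and immediate early genes 8 of 26. NF-kB and chemokine genes gave 8 of 31, male-biased genes 7 of 20, fetal liver genes 7 of 22 and cholangiocyte markers 5 of 17. Stellate cell markers gave 3 of 25, female-biased genes 1 of 15 and the Y-linked list 1 of 4. With the top 5% (1000 genes), each count stands beside 5% of all genes. It held 10 of 52 cytochrome P450 and conjugation genes, 5 of 32 urea cycle and amino acid genes and 5 of 17 periportal genes. Insulin and glucocorticoid targets gave 4 of 22, transport genes 3 of 23, intermediate filament genes 3 of 15 and pericentral genes 1 of 20. Interferon response genes gave 1 of 31, cholangiocyte markers 0 of 17 and hepatocyte transcription factors 0 of 27.

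Without 1 array, the median SD was 0.07 to 0.08 for all genes, 0.15 to 0.23 for interferon response genes and 0.06 to 0.07 for secreted plasma proteins. Of 312 recomputed signals of single genes, 291 moved by no more than 1 SD. Averaging probe sets moved *Baiap2l1* to 11.03 and *Hk1* to 9.87, and taking the lowest array lowered the other 19. Leaving out 1 array cannot move a mean by more than 1 SD, so part of the 291 was fixed in advance. Further scaling of arrays that were already quantile normalized could also move a signal only a little. No robustness of the signals is therefore read from the 291. No paired analysis was possible because no groups were compared.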
